A study of Mus musculus with 16 samples.

Results

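The miR-17-92 cluster is a polycistron, a stretch of DNA whose single primary transcript holds several microRNA (miRNA) hairpins. Its 7 measured products, mmu-miR-17-5p, mmu-miR-17-3p, mmu-miR-18a-5p, mmu-miR-19a-3p, mmu-miR-20a-5p, mmu-miR-19b-3p and mmu-miR-92a-3p, were taken by name from 1247 mouse miRNAs on an array. They were followed in RAW264.7, an established mouse macrophage-like cell line, with 4 arrays in each of 4 groups. Media cells were grown for 48 h in complete medium, and Th2 cells for 48 h with interleukin-4 and interleukin-13, the cytokines of T helper type 2 (Th2) cells, at 10 ng per ml. Media_IL33 and Th2_IL33 cells were grown in the same ways, washed, and then given interleukin-33 (IL-33, an alarm cytokine) at 20 ng per ml for 4 h before RNA was taken. All groups were unmodified cells of this line, and numbers 1 to 4 stand for 4 independent experiments, each with 1 array in every group under a shared experiment letter in the labels. The series asks how an allergic cytokine setting alters the response of macrophages to an inflammatory stimulus. RAW264.7 is a transformed, dividing line and not a resting tissue macrophage.

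The primary transcript of the cluster is cut by the nuclear enzyme Drosha into hairpins, and Dicer then releases an arm from each side of a hairpin. The arm loaded into an Argonaute protein pairs through its seed, bases 2 to 8, with messenger RNAs and represses them. The transcription factor Myc switches the cluster on, and its miRNAs are known for repressing the death factor Bim and the cell cycle inhibitor p21. In monocytes, miR-17 and miR-20a are known to hold back differentiation by repressing the factor Runx1, and the cluster is usually high in dividing cells. The miR-18a, miR-19 and miR-92a groups have other seeds and so other targets.

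In the mouse the 6 hairpins lie in the order Mir17, Mir18, Mir19a, Mir20a, Mir19b-1 and Mir92-1 on the plus strand at chr14:115043671-115044506 (RefSeq, build GRCm38.p6), a span of 836 bases. All 7 names matched a RefSeq mature sequence. They are shown because the seed decides which members act alike on targets and the rest of the sequence decides what the probes can tell apart. Capitals mark the seed.
mmu-miR-17-5p: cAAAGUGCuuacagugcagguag
mmu-miR-20a-5p: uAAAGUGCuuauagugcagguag
mmu-miR-18a-5p: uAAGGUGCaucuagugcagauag
mmu-miR-19a-3p: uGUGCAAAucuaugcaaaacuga
mmu-miR-19b-3p: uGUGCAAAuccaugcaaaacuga
mmu-miR-92a-3p: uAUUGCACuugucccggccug
mmu-miR-17-3p: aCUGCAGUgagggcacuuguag

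Positions counted from 1 at the 5′ end of the miRNA show how close these are. miR-17-5p and miR-20a-5p share a seed and differ by C1U and C12U. miR-19a-3p and miR-19b-3p share a seed and differ only by U11C. miR-18a-5p differs from miR-17-5p at 6 of 23 bases, 1 of them (A4G) in the seed. miR-17-3p comes from the hairpin of miR-17-5p but has a seed of its own. The mature miR-19b-3p and miR-92a-3p each have 2 loci, the other being in the paralogous cluster on chromosome X, so their signal cannot be assigned to a locus.

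Every member has 2 probes, each printed 20 times, that pair with its 3′ end. Those of miR-17-5p are the shortest, and they are shown because they limit what can be said of this member.
12-base probe of miR-17-5p: ctacctgcactg
13-base probe of miR-17-5p: ctacctgcactgt
18-base probe of miR-20a-5p: ctacctgcactataagca
The scanner files list both probes of miR-17-5p for miR-106a-5p as well, which differs from it by U10A and pairs with all 12 and all 13 bases. miR-20a-5p and miR-20b-5p pair with 11 of the bases of either probe and miR-93-5p with 10, and all 3 were detected on all 16 arrays. In return, miR-17-5p pairs with 11 of the 18 bases of the miR-20a-5p probe, and miR-20b-5p pairs with 13. Likewise miR-20a-5p pairs with 13 bases of either miR-20b-5p probe, which have 19 and 20. Between miR-19a-3p and miR-19b-3p, each pairs with 12 bases of the other's probes, which have 19 to 21. Values named miR-17-5p are therefore those of miR-17-5p together with any miR-106a-5p, whose relative contributions were not measured. Whether the relatives that pair in part add to the signal was not tested.

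The scanner software detected all 7 members on all 16 arrays. Of 1247 miRNAs, 178 were detected on every array and 231 on all 4 arrays of at least 1 group, and these 231 were tested. Values are given as relative signal, the summed intensity of a miRNA's probes divided by the 75th percentile of its array, taken over the 178, which makes that percentile 1. That percentile lay between 427 and 654 intensity units, 206 to 256 miRNAs were detected per array, and no spot was saturated. Probes differ in how strongly they bind, so a level is compared here between arrays and never between members. The arrays lay on 2 slides in unequal shares, with 3, 3, 2 and 0 arrays of Media, Th2, Media_IL33 and Th2_IL33 on slide 1. Media 3 stood furthest from its own group (median r of 0.874 over the 231 miRNAs, against 0.991 for the closest array). Of 5 listed macrophage and myeloid markers, the 3 on the array (miR-146a-5p, miR-21a-5p and miR-223-3p) were detected on all 16 arrays. Their summed relative signal was 7.39 to 16.7 in Media and 17.3 to 25.5 in Th2. With IL-33 it was 14.4 to 20.6 in Media_IL33 and 23.1 to 31.5 in Th2_IL33. Nearly all of this sum was miR-21a-5p (6.86 to 30.4 over all arrays), beside miR-223-3p (0.336 to 1.19) and miR-146a-5p (0.188 to 0.646). It therefore describes miR-21a-5p and not the markers as a set. None of the 10 markers of liver, muscle, nerve, epithelial, red blood and lymphoid cells on the array was detected on any array, and their sum stayed at 0.0210 to 0.0611.

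The opposite arms of the hairpins were measured too. The array holds miR-18a-3p, miR-19a-5p, miR-20a-3p, miR-19b-1-5p and miR-92a-1-5p, and 0 of these 5 was detected on any array. Of these, 4 stayed under the floor of 0.0353, the lowest relative signal treated as measured, on all 16 arrays, and miR-18a-3p reached 0.0853 on Media 3. Among the 6 hairpins, Mir17 is thus the one with both arms measured. miR-17-3p, the arm on its 3′ side, was detected on all 16 arrays at 0.164 to 0.290.

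Growth in Th2 cytokines went with lower levels of 2 members. Averaged over cells without and with IL-33, 2 of the 7 members fell, miR-19a-3p by 0.36 on the log2 scale and miR-92a-3p by 0.30, and 0 rose. The other 5 did not pass, although all 7 differences lay below 0, with a median of -0.27. Over all 231 tested miRNAs the median was 0.10 and 42.4% lay below 0. In this comparison 19.9% of all tested miRNAs passed an adjusted limma p of 0.05, and 3.9% passed as lower. The comparison weighs Th2 against Media and Th2_IL33 against Media_IL33 equally and is called the growth comparison below.

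miR-19a-3p, which shares its seed with miR-19b-3p, had a relative signal of 1.05, 0.725, 0.685 and 1.01 in Media 1 to 4 and of 0.684, 0.651, 0.612 and 0.696 in Th2 1 to 4. The Th2 arrays lay close together at the level of the lowest Media array, and the groups overlapped only through Media 3 and Th2 4. With IL-33 it had 0.705, 0.769, 0.967 and 0.993 in Media_IL33 and 0.629, 0.725, 0.637 and 0.687 in Th2_IL33. Here Media_IL33 3 and 4 were high, and Th2_IL33 2 reached above the lowest Media_IL33 array. It was lower with Th2 cytokines in 4 of 4 experiments. The growth comparison gave a log2 difference of -0.36 ± 0.11 (SE, 95% interval -0.59 to -0.12), a ratio of 0.781 (limma adjusted p = 0.0316 over 231 miRNAs). Each part alone gave -0.37 ± 0.15 (limma adjusted p = 0.151) without IL-33 and -0.35 ± 0.15 (adjusted p = 0.217) with it, neither past the threshold.

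miR-92a-3p, the last hairpin of the cluster and a miRNA known for restraining blood vessel growth, had 1.70, 1.61, 1.15 and 1.33 in Media and 1.04, 1.22, 1.03 and 1.05 in Th2. Of the Th2 arrays, experiment 2 stood above the other 3 and above Media 3, the only point where the groups overlapped. With IL-33 the values were 1.39, 1.36, 1.50 and 1.25 in Media_IL33 and 1.35, 1.30, 1.02 and 1.14 in Th2_IL33. Experiments 1 and 2 of Th2_IL33 lay within the range of Media_IL33, and the other 2 lay below it. The growth comparison gave -0.30 ± 0.10 (SE, 95% interval -0.51 to -0.09, ratio 0.812, limma adjusted p = 0.0383), lower in 4 of 4 experiments. The parts were -0.40 ± 0.14 without IL-33 (limma adjusted p = 0.0842) and -0.20 ± 0.14 with it (adjusted p = 0.445). Whether these parts differ was tested by the interaction, 0.21 ± 0.19, which did not pass (limma adjusted p = 0.995).

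**Figure D1:**
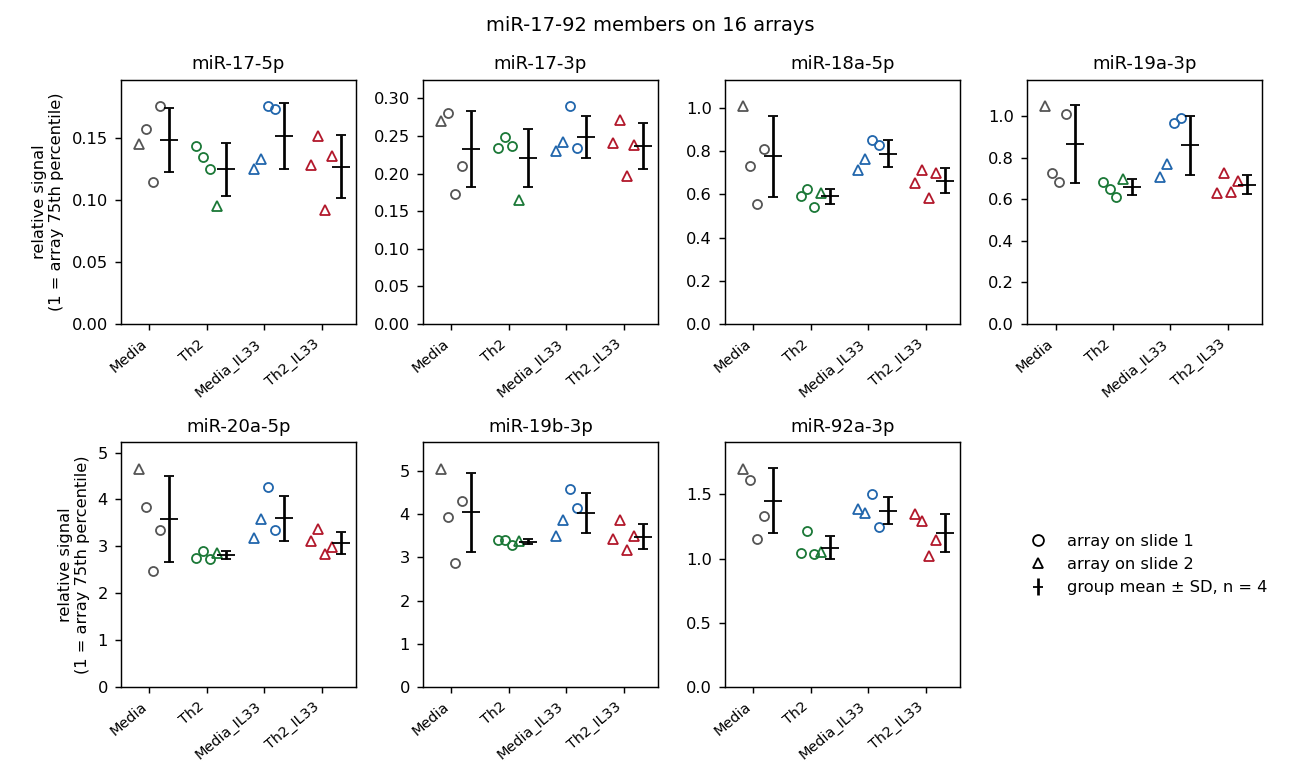
Relative signal (1 is the 75th percentile of the array) of each member on the 16 arrays by group, with an axis from 0 for each member; circles are arrays on slide 1, triangles arrays on slide 2, and bars the group mean ± SD (n = 4). The Th2 arrays of miR-19b-3p lie between 3.28 and 3.41 while the Media arrays spread from 2.87 to 5.06, and every member's Th2 and Media arrays overlap.

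miR-18a-5p, whose seed differs from that of miR-17-5p by 1 base, stood just outside the threshold. It had 1.01, 0.732, 0.556 and 0.809 in Media and 0.591, 0.625, 0.541 and 0.608 in Th2. Media 3 alone reached down into the Th2 range. With IL-33 it had 0.711, 0.765, 0.850 and 0.831 in Media_IL33 and 0.655, 0.712, 0.585 and 0.702 in Th2_IL33, where the groups met at Media_IL33 1 and Th2_IL33 2. The growth comparison gave -0.31 ± 0.11 (SE, 95% interval -0.53 to -0.08), lower in 4 of 4 experiments, with a limma adjusted p of 0.0556. With a block for the replicate number, which the labels tie to the experiment, it passed (limma adjusted p = 0.0477).

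miR-20a-5p, the member with the seed of miR-17-5p and probes of its own, had 4.66, 3.84, 2.48 and 3.34 in Media. In Th2 its 4 arrays lay between 2.72 and 2.90, all above Media 3 and below the other Media arrays. Media_IL33 gave 3.17, 3.59, 4.26 and 3.36, and the Th2_IL33 arrays lay between 2.83 and 3.36, so these groups overlapped. The growth difference was -0.27 ± 0.11 (SE, 95% interval -0.51 to -0.03, limma adjusted p = 0.111).

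miR-19b-3p, with the seed of miR-19a-3p, had 5.06, 3.93, 2.87 and 4.31 in Media and 3.41, 3.41, 3.28 and 3.38 in Th2. It was the member with the most even Th2 arrays, with a coefficient of variation (SD over mean) of 1.80% in Th2 and 22.5% in Media. Media_IL33 held 3.51 to 4.60 and Th2_IL33 3.16 to 3.86. The growth difference was -0.22 ± 0.10 (SE, limma adjusted p = 0.160).

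The arms of the Mir17 hairpin had the widest errors of the members. miR-17-5p had 0.145, 0.157, 0.114 and 0.176 in Media and 0.144, 0.135, 0.125 and 0.0950 in Th2, with all but Th2 4 inside the Media range. It had 0.125, 0.133, 0.175 and 0.173 in Media_IL33 and 0.128, 0.152, 0.0918 and 0.135 in Th2_IL33. Its growth difference was -0.26 ± 0.13 (SE, 95% interval -0.55 to 0.03, limma adjusted p = 0.200). miR-17-3p, its partner arm, had 0.269, 0.280, 0.173 and 0.210 in Media and 0.233, 0.248, 0.237 and 0.164 in Th2. The Th2 values lay inside the Media range except Th2 4. With IL-33 it held 0.230 to 0.290 without and 0.197 to 0.272 with Th2 cytokines. Its growth difference was the smallest of the members, -0.07 ± 0.12 (SE, 95% interval -0.34 to 0.19, limma adjusted p = 0.629).

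Taken without IL-33, Th2 against Media, 0 of 7 members passed the adjusted threshold, where 9.52% of the 231 miRNAs did. By unadjusted limma p, 3 members were lower at 0.05 (miR-18a-5p, miR-19a-3p and miR-92a-3p), where 6.49% of all tested miRNAs were. The median of the members was -0.31 and that of all tested miRNAs 0.06. In 0 members were the 4 Th2 arrays all below the 4 Media arrays, a pattern that 1.73% of all tested miRNAs showed. With IL-33, Th2_IL33 against Media_IL33, 0 of 7 passed where 9.52% of all did, and 1 member (miR-19a-3p) was lower by unadjusted p where 2.6% of all were. Its median was -0.22 beside 0.08 for all, and again 0 members had groups without overlap in that direction, beside 1.73% of all. The 2 parts of the growth comparison use different arrays but share the variance estimate of each miRNA.

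**Figure D2:**
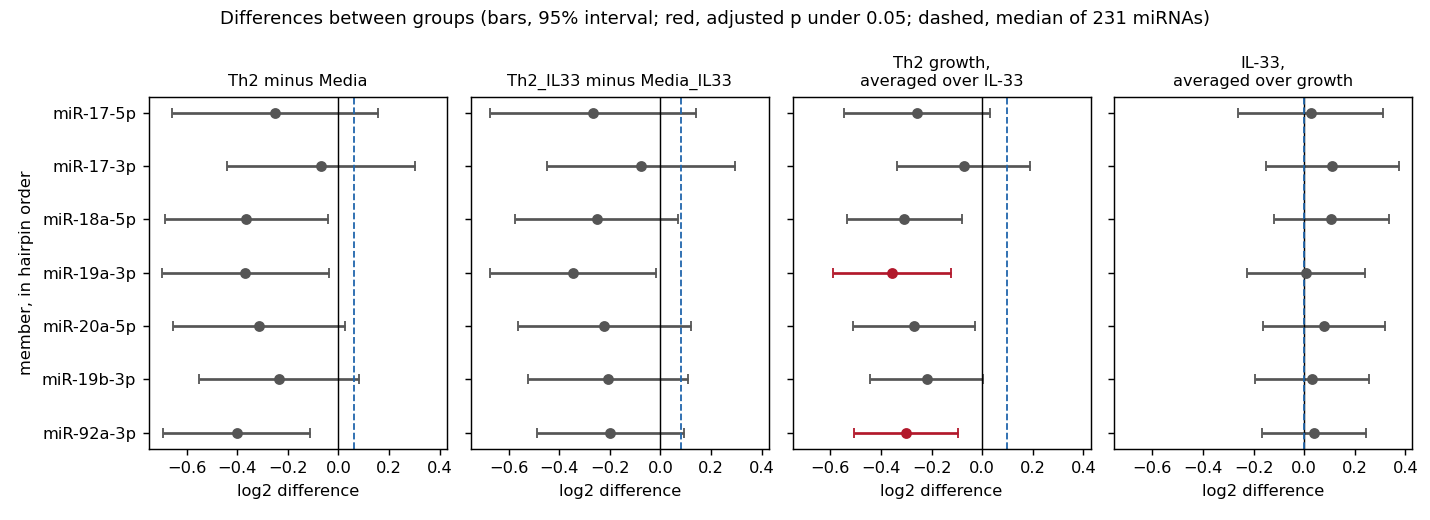
Log2 difference of each member (point) with its 95% interval (bar) from limma in 4 comparisons; red marks adjusted p under 0.05 and the dashed line the median of 231 tested miRNAs. In the growth comparison all 7 points lie left of 0 and only miR-19a-3p and miR-92a-3p are red, while the IL-33 points lie between 0.01 and 0.11.

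Both calls of the growth comparison were narrow, and most single arrays could end one of them. Adjusted p values without an array are from the same limma model. miR-19a-3p did not pass without Media 1 (0.0524) or 4 (0.0585), Th2 1 (0.0513), 2 (0.0583) or 3 (0.0645), Media_IL33 3 (0.0638) or 4 (0.0656) or Th2_IL33 1 (0.0585). miR-92a-3p did not pass without Media 1 (0.0665) or 2 (0.0712), Th2 1 (0.0746), 3 (0.0794) or 4 (0.0560), Media_IL33 1 (0.0638), 2 (0.0721) or 3 (0.0811), or Th2_IL33 3 (0.0619) or 4 (0.0668). In the other direction, without Media 3 the 5 members other than the Mir17 arms passed as lower, with log2 differences of -0.41 for miR-19a-3p, -0.38 for miR-18a-5p, -0.35 for miR-20a-5p, -0.35 for miR-92a-3p and -0.30 for miR-19b-3p. The same 5 passed without Media 3 in Th2 against Media, with differences of -0.51 to -0.39. They also passed in the growth comparison without Media 1, Media 3 and Th2_IL33 2, arrays that stood apart in an earlier analysis of these data. The size and sign moved less than the calls: over these 16 omissions of 1 array, miR-19a-3p stayed between -0.41 and -0.31 and miR-92a-3p between -0.35 and -0.26.

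Slide touched this comparison as well. With slide as a block, miR-92a-3p passed (limma adjusted p = 0.0448) and miR-19a-3p did not (-0.35, adjusted p = 0.0520). Slide 1 holds 3 Media and 3 Th2 arrays, and within it the median of the members was -0.18 and miR-17-3p differed by 0.14, while the other 6 lay between -0.30 and -0.12. On slide 2, Media 1 and Th2 4 are the only arrays of their groups, and there the median was -0.70, with all 7 below 0. Within slide 2 the growth comparison had a median of -0.37, again with all 7 below 0. It averages that difference of single arrays with Th2_IL33 against Media_IL33 (4 and 2 arrays), whose median was -0.14. The direction held on each slide for 6 of 7 members, while the size differed between slides.

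IL-33 changed 0 of the 7 members by the adjusted limma p in any comparison, and 0 had an unadjusted p under 0.05. These comparisons use the same Media and Th2 arrays as those above. In medium-grown cells (Media_IL33 against Media), 1.73% of all tested miRNAs passed, and the members' median was 0.03. In Th2-grown cells (Th2_IL33 against Th2), 1.73% passed, and the members' median was 0.11. Averaged over growth, 2.16% passed, and the members lay between 0.01 (miR-19a-3p) and 0.11 (miR-17-3p), with adjusted p of 0.997 for each. The model has no term for slide, and within it the largest fold inside any member's 95% interval was 1.30 averaged over growth. In the 2 separate comparisons it was 1.40. These intervals therefore leave out differences between slides, where Th2_IL33 had 0 arrays on slide 1 and Th2 had 3. As a scale for this treatment, miR-146a-5p, a miRNA induced by NF-kB, rose 1.98-fold with IL-33 averaged over growth (95% interval 1.68 to 2.34, limma adjusted p = 2.32e-05), higher in 4 of 4 experiments.

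The small medians of the IL-33 comparison in medium hide a disagreement between slides. Within slide 1 (2 Media_IL33 and 3 Media arrays) all 7 members were higher with IL-33, at 0.02 for miR-92a-3p and 0.25 to 0.30 for the other 6. Within slide 2 (2 arrays and Media 1 alone) all 7 were lower, from -0.51 for miR-19a-3p to -0.18 for miR-17-5p. Over all tested miRNAs the medians were 0.16 and -0.17, of the same signs. No member passed in either slide, and with slide as a block the members' median was 0.01. Media 1, the only Media array of slide 2, was also the array with the highest members' mean.

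The interaction asks whether IL-33 acted differently after Th2 growth than after growth in medium. It passed for 0 of 7 members and for 0% of all tested miRNAs by adjusted limma p. By unadjusted p 0 members and, over all 231, 1 higher and 4 lower were under 0.05. The members' interactions lay between -0.02 and 0.21, with intervals that reach from -0.59 to 0.62.

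The members varied together from array to array. Over the 16 arrays the 21 pairs of members had a median Pearson r of 0.70, from 0.29 for miR-17-3p with miR-19a-3p to 0.95 for miR-18a-5p with miR-19b-3p. Among all pairs of the 178 miRNAs detected on every array the median was 0.24. With the mean of each group taken out, the medians were 0.68 for the members and 0.39 for all pairs. The members thus also moved together among replicate arrays within groups, and miRNAs outside the cluster moved with them (given below). How the shared movement divides between groups and replicates was not measured. These are descriptions over 16 arrays whose values share the scaling of each array, and array quality was not tested as a part of them.

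miR-19b-3p followed the other 6 most closely (r of 0.95 with their mean), then miR-18a-5p (0.93), miR-20a-5p (0.91), miR-92a-3p (0.82), miR-19a-3p (0.77) and miR-17-5p (0.74). miR-17-3p followed them least, at 0.65. The seed did not order these values: miR-17-5p and miR-20a-5p, which share a seed, had an r of 0.59 (0.45 with group means out), and miR-17-5p and miR-19b-3p 0.72. miR-19a-3p and miR-19b-3p had 0.88. The arms of the Mir17 hairpin had 0.69, with 0.52 on slide 1 and 0.94 on slide 2.

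**Figure D3:**
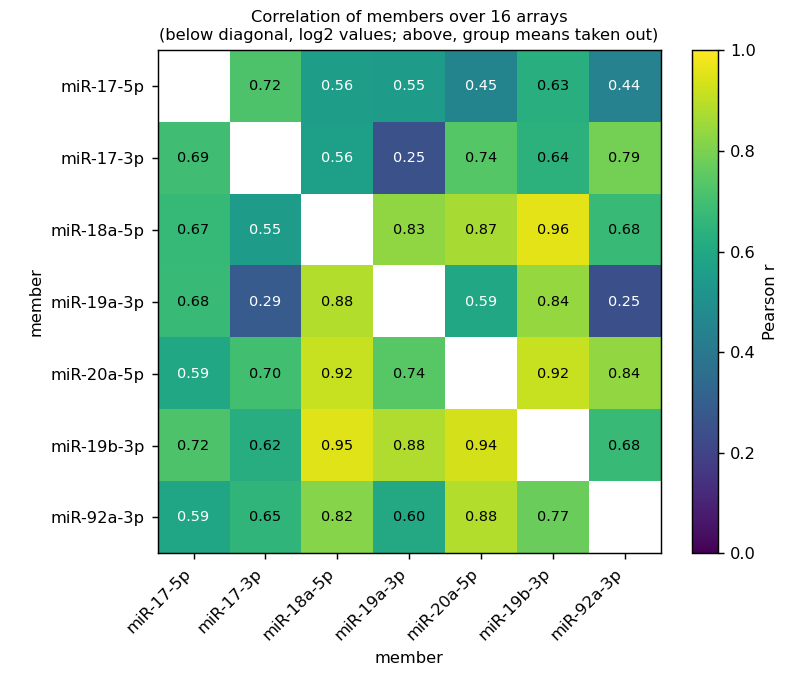
Pearson r between members over 16 arrays, from log2 relative signal below the diagonal and with group means taken out above it. Below the diagonal the cells among miR-18a-5p, miR-20a-5p and miR-19b-3p are the brightest, at 0.92 to 0.95. The lowest there is miR-17-3p with miR-19a-3p, at 0.29. Above the diagonal the lowest are miR-19a-3p with miR-92a-3p and with miR-17-3p, at 0.25 each.

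The members' mean, each member centred on its own average, was highest on Media 1 (0.39), Media_IL33 3 (0.33), Media_IL33 4 (0.18) and Media 4 (0.18). It was lowest on Th2_IL33 3 (-0.29), Media 3 (-0.28) and Th2 4 (-0.27). All 4 Th2 arrays and 3 of 4 Th2_IL33 arrays were below 0, but so were Media 3 and, at -0.02, Media_IL33 1. Experiment 3 gave the lowest array of Media and of Th2_IL33 and the highest of Media_IL33, so the experiments did not move the members the same way in every group.

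**Figure D4:**
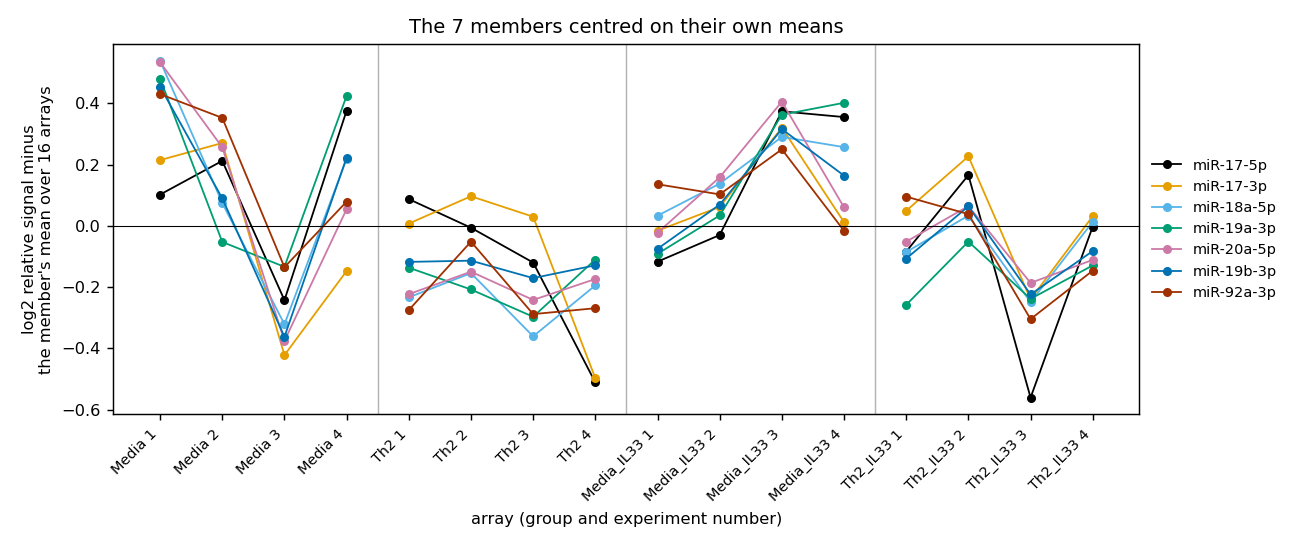
Log2 relative signal of each member minus its own mean over 16 arrays, by array, with lines joining arrays of a group only to help the eye. All 7 members lie lower on Media 3 than on Media 1, miR-17-5p and miR-17-3p lie below the rest on Th2 4, and miR-17-5p lies lowest on Th2_IL33 3.

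A ratio of 2 members on the same array does not depend on how arrays are scaled. It was used to ask whether members of the polycistron moved apart. Of 6 ratios, 0 passed in any of 6 comparisons (exact permutation tests, two-sided, adjusted over the 6 ratios), and 1 had an unadjusted p under 0.05. With 4 arrays against 4 the smallest exact permutation p is 0.0286, so 1 ratio alone could not pass there after adjustment. The 0 in those comparisons therefore does not show that the members kept together. The log2 ratio of miR-19a-3p to miR-19b-3p, which differ by 1 base, was -2.27, -2.44, -2.07 and -2.10 in Media, against -2.32, -2.39, -2.42 and -2.28 in Th2. Media 2 lay below every Th2 array, and the groups overlapped. With IL-33 it was -2.31, -2.33, -2.25 and -2.06 in Media_IL33 and -2.45, -2.41, -2.31 and -2.34 in Th2_IL33. In the growth comparison this ratio differed by -0.14, with an exact permutation p of 0.0322 and 0.193 adjusted over the 6. Without Media 2 it differed by -0.17 (exact permutation p = 0.00204, adjusted 0.0122) and passed.

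The arms of the Mir17 hairpin were the other pair of interest, since they come from the same precursor. The log2 ratio of miR-17-3p to miR-17-5p was 0.89, 0.84, 0.60 and 0.25 in Media and 0.70, 0.88, 0.93 and 0.79 in Th2. Media 4 was far below the rest, and Media 1 and 2 lay inside the Th2 range. Its growth difference was 0.18 (exact permutation p = 0.0718, adjusted 0.216). The ratios of miR-18a-5p, miR-20a-5p, miR-19b-3p and miR-92a-3p to miR-17-5p differed by -0.05, -0.01, 0.04 and -0.04 in the same comparison, with exact permutation p of 0.654 or more. With normexp background correction these 4 ratios passed as lower, by -0.21 to -0.27, where the growth difference of the dim miR-17-5p itself was -0.04.

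**Figure D5:**
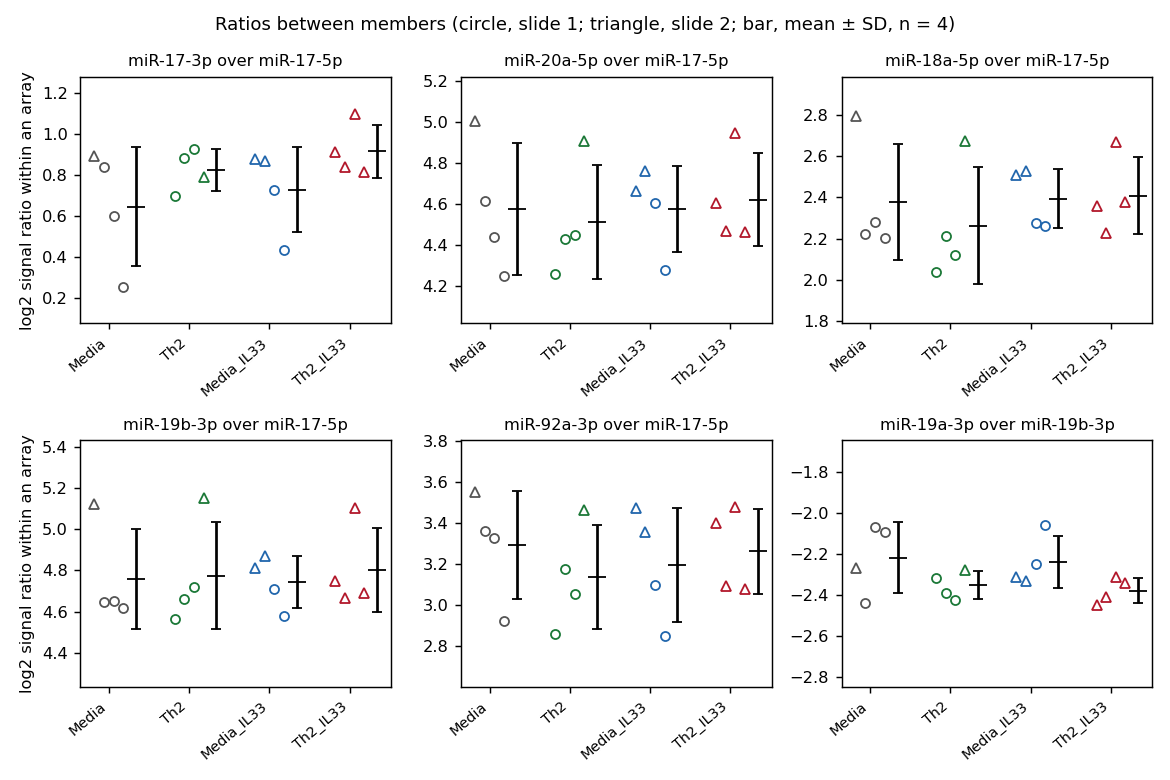
Log2 ratio of 2 members on the same array, by group, on axes of equal span; circles are slide 1, triangles slide 2 and bars the mean ± SD (n = 4). The ratio of miR-19a-3p to miR-19b-3p lies between -2.45 and -2.31 in Th2_IL33 and between -2.44 and -2.07 in Media, and all groups overlap.

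The probes of a member were read apart. Of the 14 probes, 13 were above background on all 16 arrays, and the 12-base probe of miR-17-5p was on 2. For every member both probes had a growth difference below 0. The probes of miR-19a-3p gave -0.35 (21 bases) and -0.37 (20 bases), and those of miR-92a-3p -0.29 (17 bases) and -0.35 (16 bases). Those of miR-17-3p gave -0.05 and -0.12, and those of miR-17-5p -0.25 and -0.27. The repeated spots of a probe varied by 4.32% (20-base probe of miR-19b-3p) to 26.3% (12-base probe of miR-17-5p), as a median coefficient of variation.

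The paralogous clusters carry some of the same seeds. Of 12 names listed from the miR-106a-363 and miR-106b-25 clusters, 11 were on the array and 4 were detected on all 16 arrays: miR-20b-5p, miR-106b-5p, miR-93-5p and miR-25-3p. In the 7 comparisons 0 of these 4 passed the adjusted limma threshold, beside the shares of all tested miRNAs given above. By unadjusted limma p, 1 was under 0.05, miR-20b-5p as lower in the growth comparison. There 22 of all 231 tested miRNAs were lower and 54 higher by unadjusted p under 0.05. miR-20b-5p differs from miR-20a-5p by U1C and U10C and has the sequence below, shown for its likeness to that member.
mmu-miR-20b-5p: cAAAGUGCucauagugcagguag
It had 1.36, 1.02, 0.905 and 1.18 in Media and 1.01, 0.995, 0.918 and 0.834 in Th2. Media 3 and Th2 4 were the lowest of their groups, as they were for the Mir17 arms. Its growth difference was -0.22 ± 0.10 (SE, limma adjusted p = 0.128). The 3 members of the miR-106b-25 cluster, which lies in an intron of the replication gene Mcm7, had growth differences of -0.05 (miR-106b-5p), -0.02 (miR-93-5p) and 0.04 (miR-25-3p). Of these, miR-25-3p has the seed of miR-92a-3p, and the other 2 have the seed of miR-17-5p. No detected paralog has the seed of miR-18a-5p or of miR-19a-3p. The difference between the clusters was not tested.

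Outside these lists, the 5 tested miRNAs whose pattern over 16 arrays was most like the members' mean were miR-674-3p (Pearson r of 0.86), miR-7a-5p (0.86), miR-139-5p (0.86), miR-2137 (0.84) and miR-151-5p (0.82), where the median over 220 candidates was 0.12. Their Spearman rho was 0.81 to 0.90. Without Media 1 and Media_IL33 3, the arrays farthest from the median, r was 0.77 to 0.88. The order depended on the scaling: with quantile normalization the most alike was miR-139-5p. With group means out these 5 had r of 0.75 (miR-139-5p) to 0.89 (miR-674-3p). They then ranked between 19 and 61, so other miRNAs outside the cluster followed the members' mean more closely. Since these 5 were chosen for their likeness to the members' mean, their growth differences are a description with no test: -0.14 for miR-674-3p, -0.39 for miR-7a-5p, -0.27 for miR-139-5p, -0.15 for miR-2137 and -0.11 for miR-151-5p.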

How the data were processed

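Total RNA (100 ng) was hybridised to single-colour Agilent mouse miRNA arrays, 4 per group, per the labels. Spot intensity was extracted with Agilent Feature Extraction 10.7.3.1, per the file headers; in the deposited scanner files it is background-subtracted and not scaled between arrays. Detection and outlier flags were used as deposited. The series also has an authors' matrix of 3105 probe intensities (Partek 6.6 and RMA, per the submitters' processing notes). All its columns have a median of 0.428, so the deposited values are linear and equalised between arrays; it served as an alternative.

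Control and outlier spots (2040 to 3929 outliers per array) were left out, spots of a probe averaged, probes of a miRNA summed, each array divided by its 75th percentile over 178 miRNAs, values floored at 0.0353 (percentile 1 of detected signals) and log2 taken. The model was limma 3.58.1 (R 4.3.3, with version 1.17.8 of data.table) with 1 mean per group over 16 arrays (12 residual degrees of freedom), Benjamini-Hochberg over 231 miRNAs and a threshold of 0.05. Ratios between members were compared by exact permutation. Scripts were tested on simulated data. Precision is limited by 4 arrays a group.

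The members and lists were chosen with earlier results of these data known. Named were the 7 members, their opposite arms, 12 paralogs as counts, the 5 most alike miRNAs and, as a scale, miR-146a-5p (miR-511-3p, listed too, was not needed). The labels give same-numbered arrays of the 4 groups the same experiment letter, and the series text calls the experiments independent, so the numbers pair arrays across groups. Deviations of same-numbered arrays correlated with a median r of 0.11 (24 pairs, -0.69 to 0.73), and of others with -0.05. Alternatives were background, scaling, probe summary, outlier spots, floor, filter, blocks, slides, weights and omitted arrays.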

Additional observations from a re-analysis of the deposited data

Results flagged for a closer look

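Of 28 groups of 4 arrays checked (7 members in 4 groups), 2 held an array far from the other 3, where chance gives about 1 in 20. miR-92a-3p on Th2 2 had a relative signal of 1.22, with a gap to the nearest array of 0.919 of the group's range. miR-17-3p on Th2 4 had 0.164, with a gap of 0.850 of the range. miR-17-5p, from the same hairpin, was also lowest in Th2 on that array, at 0.0950.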

How the results depend on the processing

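No alternative reversed a call. Counts of members here, and those with arrays omitted above, stand without the share of all tested miRNAs under each setting. They therefore do not show whether calls rose among the members in particular. For the growth comparison, where 2 members passed, 4 passed with normexp background, 0 with the percentile over all miRNAs, 6 with the brightest probe, 0 with no filter on dim miRNAs, 1 with slide as a block, 0 within slide 2, 5 with array weights, 5 without the 3 arrays that stand apart, and 0 to 5 when 1 array was left out. The causes were not tested. The brightest probe and quantile normalization moved the median of all tested miRNAs from 0.10 to -0.02. The fit with no filter holds mostly floored values, whose variance is 0 and whose moderated p is unreliable. Quantile normalization and the authors' deposited table each called miR-20a-5p, miR-19b-3p and miR-92a-3p, and not miR-19a-3p (adjusted p = 0.0532 and 0.438). The growth median of the members stayed below 0 in all of these. For Th2 against Media, where 0 passed, 1 passed with normexp background, 2 with quantile normalization, 2 in the authors' deposited table, 3 with the brightest probe, 5 with array weights, and 0 to 5 with 1 array left out. For Th2_IL33 against Media_IL33, where 0 passed, 2 passed with quantile normalization, 1 with the brightest probe and 2 with array weights. Of the ratios in the growth comparison 4 passed with normexp background (offset of 50 intensity units) and 0 to 1 with 1 array left out. The replicate block gave 3 members in the growth comparison, adding miR-18a-5p, and changed no other call of a member. Counts for IL-33 and the interaction were 0 under every alternative run. Short probes and signals near background limit miR-17-5p.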
